A study of Mus musculus with 4 samples.

Results

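The Serpina cluster of the mouse is a run of serpin genes on chromosome 12, of which 10 were followed here by name: Serpina1a, Serpina1b, Serpina1c, Serpina1d, Serpina1e, Serpina3k, Serpina3m, Serpina3n, Serpina6 and Serpina10. They were picked by symbol from the 21521 protein-coding genes of chromosomes 1 to 19 and X in RefSeq (GRCm38.p6, the build named mm10), and all 10 were found. In situ Hi-C, which crosslinks chromatin, cuts it inside the nucleus with MboI, ligates neighbouring ends and sequences the junctions, was performed on AML12 cells, an immortalized mouse hepatocyte line. There were 4 libraries, 2 from cells grown on dishes (2D) and 2 from cells embedded in Matrigel (3D). Before fixation, both cultures were kept in 1 mM hydroxyurea, which blocks DNA synthesis and stops cells as they enter S phase, the 2D cells during 24 h and the 3D cells during 36 h, so growth dimension and time in the drug cannot be told apart. The comparison asks whether the topologically associating domains (TADs), the locally compact units of a chromosome, differ between the cultures. The authors combined the 2 replicates of a culture before calling TADs, which leaves 1 list of TADs per culture, on a grid of 40 kb and without read counts. The values below therefore have no replicate error, no test between the cultures was possible, and the depth behind a TAD is unknown. Such lists hold no expression values, so the hepatocyte label of the cells was not checked against marker genes here.

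Serpins are inhibitors of serine proteases that trap their target by a large change of their own shape, and a few have become hormone carriers instead. Hepatocytes secrete many of the clade A serpins into the blood, some of them at higher rates during the acute phase response. Serpina1 encodes alpha-1-antitrypsin, the main plasma inhibitor of neutrophil elastase, and in the mouse it exists as several tandem copies. Serpina3 encodes antichymotrypsin in humans and has likewise expanded in rodents. Serpina6 encodes corticosteroid-binding globulin, which carries cortisol and corticosterone, and Serpina10 encodes the protein Z-dependent inhibitor of coagulation factor Xa.

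The 5 Serpina1 copies are alike in sequence around a word that their promoters share. The stretches below are shown because this likeness bears on how Hi-C reads can be placed in the cluster. They are the 122 bases around this shared word of 12 bases (in capitals) that starts with GTTAAT, the half-site of the hepatocyte factor HNF1, and they are read 5′ to 3′ on the minus strand from RefSeq promoters (GRCm38.p6, 250 bases before to 50 after the gene start).
Serpina1b, chr12:103738154-103738275: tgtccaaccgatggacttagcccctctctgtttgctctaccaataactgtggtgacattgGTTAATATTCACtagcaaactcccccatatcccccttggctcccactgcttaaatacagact
Serpina1d, chr12:103773588-103773709: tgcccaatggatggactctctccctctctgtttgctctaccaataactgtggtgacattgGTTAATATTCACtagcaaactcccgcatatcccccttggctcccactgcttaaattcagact
Serpina1a, chr12:103863579-103863700: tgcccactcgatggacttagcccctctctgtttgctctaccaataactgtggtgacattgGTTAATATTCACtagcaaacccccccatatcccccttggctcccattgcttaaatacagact
Serpina1c, chr12:103904916-103905037: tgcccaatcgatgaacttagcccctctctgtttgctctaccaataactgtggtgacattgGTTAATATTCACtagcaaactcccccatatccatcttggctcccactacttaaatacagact
Serpina1e, chr12:103956914-103957035: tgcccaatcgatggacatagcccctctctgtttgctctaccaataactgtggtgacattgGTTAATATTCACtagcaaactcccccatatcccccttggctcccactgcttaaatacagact

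In these windows 105 of the 122 positions held the same base in all 5 genes, including the 12 of the word by which the windows were aligned. The most alike pair was Serpina1b and Serpina1e, which differed at 3 positions, and the least alike was Serpina1c and Serpina1d, which differed at 11. The 12-base word GTTAATATTCAC was read off these promoters. Its length was a choice, and the 5 windows are also identical in the bases directly before and after it. On either strand it occurred in 5 of the 32851 RefSeq promoters, which are those of the 5 Serpina1 copies. Its first part, GTTAAT, was present on either strand in 7.10% of all promoters and was absent from the window of Serpina3n, the only other listed gene with an entry. Serpina3k, Serpina3m, Serpina6 and Serpina10 had no entry in the promoter table.

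All 10 genes lay in 1 TAD in the 2D-cultured cells and in 1 TAD in the 3D-cultured cells, and no border of either list fell between the first and the last of them. The TAD extended over chr12:103480001-104960000 in 2D and over chr12:103480001-104920000 in 3D (mm10). Its left border had the same position in both lists, while its right border lay 40 kb further left in 3D, which is 1 bin and the resolution of the maps. The TAD thus measured 1480 kb, or 37 bins, in 2D and 1440 kb, or 36 bins, in 3D. With both ends within 40 kb, it counts as the same TAD in both cultures. Among TADs of at least 1000 kb, 65.4% of those in 2D and 65.5% of those in 3D had such a counterpart. Over all protein-coding genes, 76.7% had their start inside a TAD in 2D and 83.5% in 3D, against 10 of 10 for the listed genes in each culture, and 72.8% had it inside a TAD in both. A TAD with a counterpart within 40 kb held the start of 51.5% of all genes in 2D and of 51.8% in 3D, 50.4% in both, and a TAD with identical ends held 35.2% in either culture. The 10 listed genes were in the first of these classes and not in the second. A TAD at least as long as that of the cluster held 12.9% of gene starts in 2D and 13.3% in 3D. Because the listed genes share a single TAD, these 10 placements amount to 1 observation and not to 10.

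**Figure D1:**
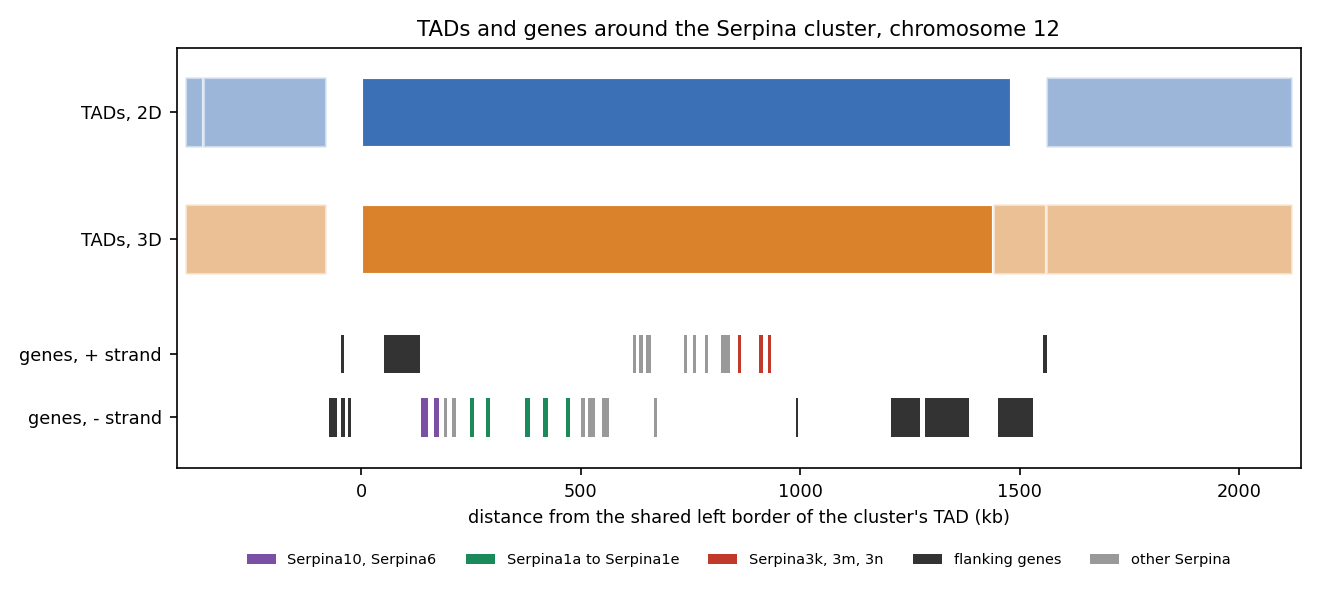
TADs of the 2D- and 3D-cultured cells (bars, the TAD of the cluster in full colour, white where no TAD was called) above the genes by strand, by distance in kb from the left border that both lists share; TADs that run past the edges of the plot are drawn up to the edge. The listed genes lie inside 1 bar in each culture, which ends at 1480 kb in 2D and at 1440 kb in 3D.

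From its first to its last base the run of listed genes spanned 797.66 kb (chr12:103616675-104414334), which is 53.9% of the TAD in 2D and 55.4% in 3D. It did not lie in the middle of the TAD. The left border was 136.7 kb from the first listed gene in both cultures, whereas the right border was 545.7 kb from the last in 2D and 505.7 kb in 3D. By name and order, though not by spacing alone, the genes form 3 groups along this run. Serpina10 and Serpina6 come first, with starts 25.7 kb apart. The start of Serpina1b lies 81.0 kb from that of Serpina6, which is less than the distance between the starts of Serpina1d and Serpina1a. The 5 Serpina1 copies follow, in the order Serpina1b, Serpina1d, Serpina1a, Serpina1c and Serpina1e, over 218.7 kb of starts. Serpina3k, Serpina3m and Serpina3n lie at the far end, with starts over 68.2 kb and 381.6 kb from that of Serpina1e.

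Serpina10 (chr12:103616675-103631490, minus strand) was the listed gene nearest to a border, its start lying 151.5 kb from the left border in both cultures. Serpina6 (chr12:103646630-103657218, minus strand) started 177.2 kb from the same border. The distances of these genes were equal in 2D and 3D because the left border did not move.

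Among the alpha-1-antitrypsin copies, all on the minus strand, Serpina1b (chr12:103728156-103738189) started 258.2 kb from the left border. Serpina1d (chr12:103763587-103773633) started at 293.6 kb and Serpina1a (chr12:103853295-103863619) at 383.6 kb. Serpina1c (chr12:103894926-103904950) started at 424.9 kb and Serpina1e (chr12:103946931-103956897) at 476.9 kb. For all 5 the left border was the nearer one in both lists, so that their distances too were equal in 2D and 3D.

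The Serpina3 genes of the list are on the plus strand and closer to the right border, the one that differed. Serpina3k (chr12:104338486-104345739), the gene of the trypsin inhibitor contrapsin, started 621.5 kb from it in 2D and 581.5 kb in 3D. Serpina3m (chr12:104387157-104394259) started 572.8 kb from it in 2D and 532.8 kb in 3D. Serpina3n (chr12:104406646-104414334), an acute phase inhibitor, started 553.4 kb from it in 2D and 513.4 kb in 3D. Each of these differences is the single bin by which the right border moved.

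Over the 10 genes the median distance from the gene start to the nearest border was 404.3 kb in both cultures, with a range of 151.5 to 621.5 kb in 2D and of 151.5 to 581.5 kb in 3D. Counting as borders only positions where TADs adjoin without a gap, which leaves out both ends of this TAD in 2D and its left end in 3D, raised the median to 764.3 kb (2D) and 619.9 kb (3D). The equality between the cultures thus depends on the definition of a border. For all 21521 protein-coding genes this distance had a median of 53.6 kb in 2D against 58.5 kb in 3D, and the 678 genes of chromosome 12 had medians of 50.7 and 53.9 kb. A start at least 150 kb from any border was found for 22.8% of all protein-coding genes in 2D and for 23.8% in 3D, and for 10 of 10 listed genes in both cultures. This again describes 1 long TAD rather than 10 separate placements.

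**Figure D2:**
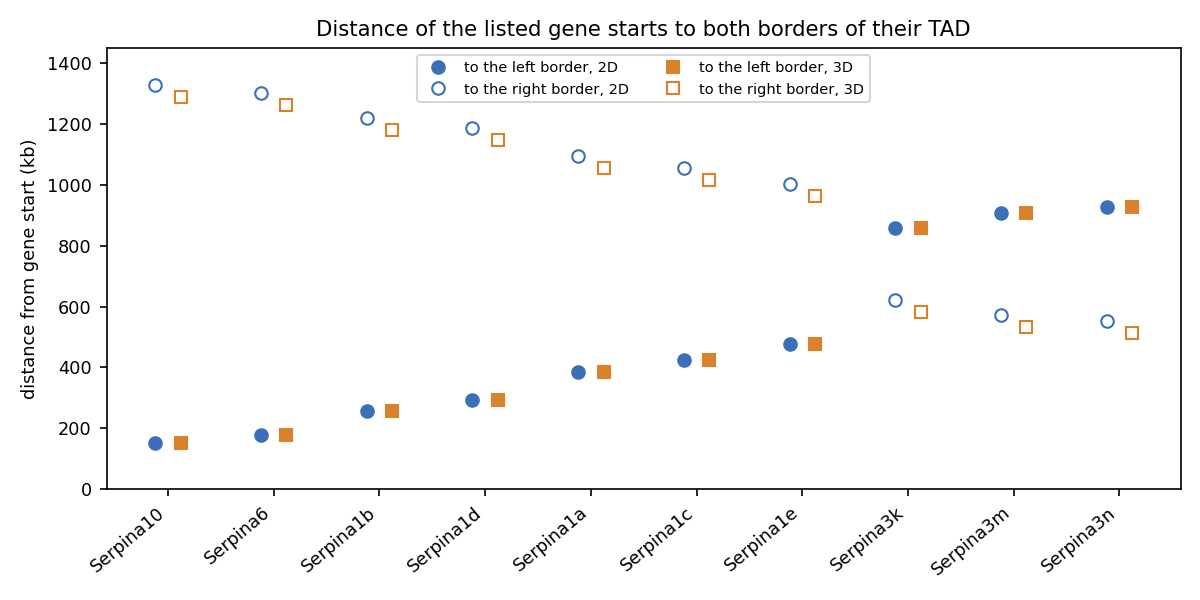
Distance in kb from the start of each listed gene, in chromosome order, to the left border (filled) and the right border (open) of its TAD in 2D (blue circles) and 3D (orange squares). The distances to the left border coincide, and those to the right border are 40 kb shorter in 3D for every gene.

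The 10 genes form 45 pairs, and all 45 pairs shared a TAD in 2D and in 3D. The closest pair was Serpina3m and Serpina3n, with starts 19.5 kb apart, and the farthest was Serpina10 and Serpina3n, 775.2 kb apart. Of all pairs of protein-coding genes with starts 700 to 800 kb apart, 9.73% shared a TAD in 2D and 9.83% in 3D, and 5 of the 45 Serpina pairs fell in this class. At less than 100 kb, with 10 Serpina pairs, the share over all genes was 54.3% in 2D and 62.8% in 3D. In the classes between, in steps of 100 kb, the share over all genes was 32.2, 21.1, 16.8, 14.4, 12.5 and 10.9% in 2D and 38.7, 25.0, 18.4, 15.1, 12.6 and 10.9% in 3D, so that the cultures differed mostly at short distance. Pairs within 1 TAD are not independent of each other, and these shares are given as a background only.

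**Figure D3:**
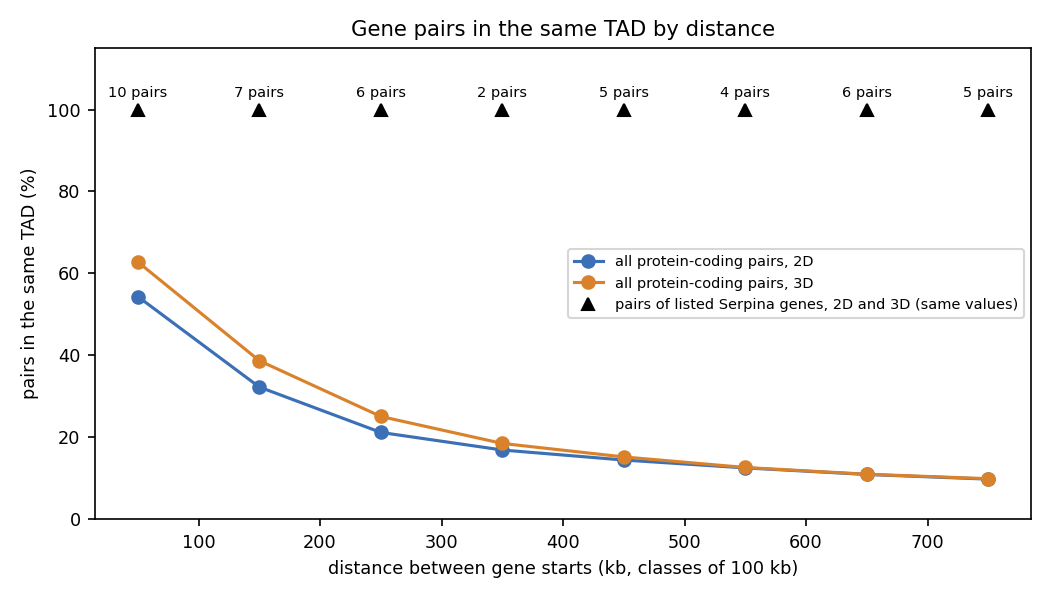
Percent of pairs of protein-coding genes that lie in the same TAD, by distance between gene starts in classes of 100 kb, for all genes in 2D (blue) and 3D (orange) and for the listed Serpina genes (black triangles, number of pairs above). The share over all genes falls from 54.3% in 2D and 62.8% in 3D in the shortest class to 9.73% and 9.83% in the longest, while the Serpina pairs stay at 100% in each class.

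The same TAD held more than the listed genes. RefSeq has 13 other protein-coding Serpina genes in this stretch (Serpina16, Serpina1f, Serpina11, Serpina9, Serpina12, Serpina5, Serpina3a, Serpina3b, Serpina3c, Serpina3f, Serpina3g, Serpina3i and Serpina3j), and each of them lay in it from end to end in both cultures. So did 5 annotated Serpina pseudogenes. The 23 Serpina genes made up most of the 27 protein-coding gene starts of the TAD, in 2D as in 3D. They point in 2 directions, with 13 on the minus strand and 10 on the plus strand. All 12 genes from Serpina10 to Serpina12, the gene of the adipokine vaspin, are on the minus strand. From Serpina5, the protein C inhibitor, onward all are on the plus strand except Serpina3c. Serpina12 started 564.4 kb and Serpina5 619.3 kb from the left border, and no border lay between them in either list. Of the 27 protein-coding gene starts, the one deepest inside the TAD was that of Serpina3f, 734.5 kb from the nearest border in 2D and 705.5 kb in 3D.

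The TAD was long and rich in genes. In 2D, 8.71% of the 4467 TADs were at least as long, and in 3D 9.00% of the 4355, the median length being 240 kb for all 2D TADs and 280 kb for all 3D TADs. At least 27 gene starts were found in 0.649% of the TADs in 2D and in 0.689% in 3D. On chromosome 12, 15 TADs were longer in each culture (of 184 in 2D and 182 in 3D), but none held more gene starts. The median was 3 gene starts over all TADs, and over TADs of at least 1000 kb it was 4 in 2D and 3 in 3D.

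Beside the serpins, the TAD held Ppp4r4 at its left end, which encodes a regulatory subunit of protein phosphatase 4 and started 52.2 kb from the left border in both cultures. To the right of the serpins lay Gsc, Dicer1 and Clmn. Gsc encodes the homeobox factor goosecoid and started 486.8 kb from the nearest border in 2D and 446.8 kb in 3D. Dicer1, the ribonuclease that makes microRNAs, started 208.0 kb from the right border in 2D and 168.0 kb in 3D. Clmn started 94.9 kb from it in 2D and 54.9 kb in 3D.

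To the left, the TAD was followed in both lists by the same stretch of 80 kb, 103400001 to 103480000, that belongs to no TAD. It held the starts of Ddx24, an RNA helicase gene, and of the interferon-induced genes Ifi27, Ifi27l2a and Ifi27l2b. Beyond it came a TAD with the starts of Prima1, Fam181a, Asb2 and Otub2, which extended from 103120001 to 103400000 in 2D (280 kb) and from 103080001 in 3D (320 kb). The next TAD, with Cox8c and Unc79, gave up that bin and measured 240 kb in 2D and 200 kb in 3D.

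To the right, in 2D, 80 kb outside any TAD (104960001 to 105040000) followed the TAD of the cluster. In 3D the space from 104920001 to 105040000 was instead a TAD of 120 kb, and it had no counterpart in 2D. Syne3, which encodes the nuclear envelope protein nesprin-3, and Glrx5, a mitochondrial glutaredoxin gene, had their starts in this space, outside TADs in 2D and inside the small TAD in 3D. The body of Syne3 (chr12:104929933-105010587) crossed the right border of the cluster's TAD in 2D and lay wholly inside the small TAD in 3D. The next TAD, 105040001 to 105600000 with the Tcl1 genes, had identical ends in both lists. From 102880000 to 105600000 each list had 7 borders. This stretch was set by the nearest TADs with identical ends on either side of the cluster. The borders at 102880000, 105040000 and 105600000 therefore have the same position by that choice. All 7 had a border of the other list within 40 kb, and 5 had one at the same position. Because of that choice, these counts are not comparable with the shares over all borders that follow. Over all borders, 81.9% of those in 2D and 88.1% of those in 3D had a border of the other list within 40 kb, and on chromosome 12 the shares were 84.9% and 92.6%. At the same position it was 64.1% in 2D and 69.8% in 3D, and for 17.7% and 18.3% the nearest border of the other list lay exactly 40 kb away, as for the right border of the cluster's TAD.

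The sequence under the listed genes was not equally easy to read. The authors mapped reads from a first length of 30 bases up to the full 150 bases and kept those with a mapping quality above 30. As a measure of what such reads can place, the words of each length that occur once on the assembled chromosomes were counted on both strands. In the 6 bins from 103720001 to 103960000, which hold the Serpina1 copies, 27.9 to 42.3% of the words of 30 bases were unique (median 32.9%), against a median of 89.0% over the 2919 bins of chromosome 12 without unknown bases. Of those bins, 6.89% had a share of 42.3% or less. At 150 bases the same 6 bins rose to 84.8 to 92.1%, against a median of 99.5%. At this length 19.6% of the 2919 bins had a share of 92.1% or less, so the Serpina1 bins stood out less. The 8 bins with a Serpina3 gene body had a median of 82.1% unique words of 30 bases, and the other 23 bins of the TAD had 94.7%.

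Among the bodies of the listed genes, Serpina1c had the lowest share of unique words of 30 bases, 29.1%, followed by Serpina1a with 29.5%, Serpina1d with 37.7%, Serpina1e with 40.4% and Serpina1b with 41.9%. At 150 bases these 5 had between 83.6% (Serpina1c) and 94.6% (Serpina1b). Serpina3m, Serpina3k and Serpina3n had 83.1%, 88.1% and 88.3% at 30 bases and at least 99.1% at 150 bases. Serpina6 had 99.9% at 30 bases. Serpina10 had 59.1%, between the Serpina1 copies and the Serpina3 genes, but its 75.6% at 150 bases was below all 5 Serpina1 copies. The Serpina1 bins were not poor in restriction sites, with 122 to 132 MboI sites each against a median of 98 on chromosome 12, and repeats made up 28.4 to 43.0% of their bases against a median of 31.5%. Both cultures were mapped to the same sequence, and the part of these properties in the absence of a border inside the cluster was not tested.

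**Figure D4:**
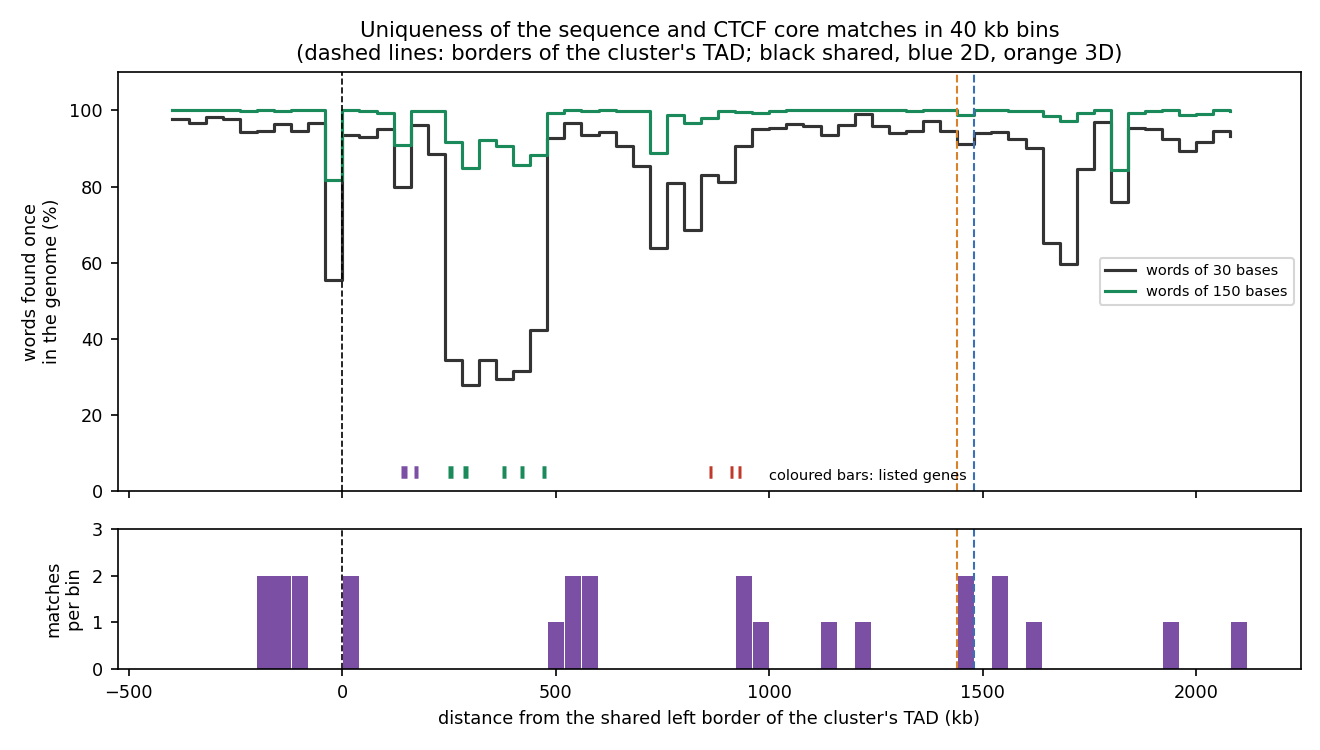
Upper panel, percent of words of 30 bases (black) and 150 bases (green) that occur once in the genome, in bins of 40 kb by distance from the left border of the cluster's TAD; lower panel, matches to the CTCF core motif per bin. The share at 30 bases drops to 27.9 to 42.3% over the Serpina1 copies, and no match lies from Serpina10 to Serpina1e. The matches in the bin of Serpina3n lie beyond the end of that gene.

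CTCF is the DNA-binding protein at which loop-forming cohesin tends to stop, and TAD borders in mammals are often rich in its sites. The 12-base core of its motif was searched on both strands of chromosome 12, with overlapping matches allowed, and gave 563 matches. Bins next to a border held a match more often (31.1% of 501 bins in 2D and 29.5% of 455 in 3D) than other bins (13.03% and 13.7%). A match is a resemblance in sequence and does not show that CTCF was bound. Only exact matches to a fixed core pattern were taken, so the lack of a match does not show that a CTCF site is absent. In the cluster's TAD as called in 2D, 1480 kb long, there were 14 matches, which lay in 9 of its 37 bins. Over all bins of chromosome 12 there were 0.480 per 100 kb, and 471 of 2919 bins held a match. The TAD was thus richer in matches than the chromosome as a whole, though they were unevenly spread. None lay between the first base of Serpina10 and the end of Serpina1e, a distance of 340.2 kb, and none from Serpina3a to Serpina3n, a distance of 301.6 kb. Between these spans, from the end of Serpina1e to the start of Serpina3a, there were 5, and 3 more followed between Serpina3n and Gsc. The longest stretch of the TAD without a match, 496.1 kb, covered Serpina10, Serpina6 and all Serpina1 copies. On chromosome 12 as a whole, 57 of the 562 intervals between neighbouring matches were at least that long, and the median interval was 101.0 kb. The next longest stretch of the TAD without a match, 349.5 kb, covered the genes from Serpina3a to Serpina3n, and 94 of the 562 intervals were at least as long.

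The matches nearest to the ends of the TAD, those of the groups' near edges and the first after Serpina3n are given here with 9 bases on each side, 5′ to 3′ on their own strand and the core in capitals (GRCm38.p6).
left end of the TAD, chr12:103488627-103488656, minus strand: tcaaacacaCCAGTAGAGGGCatcaggttc
left end of the TAD, chr12:103499431-103499460, plus strand: tgtgcagtaCCAGCAGAGGGCagaggaagg
right of the Serpina1 copies, chr12:103995488-103995517, plus strand: gcttgcttcCCAGCAGAGGGCgccgaaacc
left of the Serpina3 genes, chr12:104069838-104069867, minus strand: ggtcagtgaCCAGCAGATGGCagcagtgtg
right of Serpina3n, chr12:104419333-104419362, minus strand: ccacgtgtgCCAGTAGGTGGCagagaggag
right end of the TAD, chr12:104940596-104940625, plus strand: cagcacctaCCAGCAGGTGGCcagagtcct
right end of the TAD, chr12:104952606-104952635, plus strand: ctcatgtggCCACTAGAGGGCgctgcagac

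The pair at the left end lay 8.64 and 19.4 kb inside the border that both lists share. The pair at the right end lay in the bin from 104920001 to 104960000, inside the body of Syne3. This is the bin that belonged to the cluster's TAD in 2D and to the small neighbouring TAD in 3D. These matches were 19.4 and 7.39 kb from the right border of 2D and 20.6 and 32.6 kb from that of 3D, distances below the bin size of 40 kb.

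Other tandem gene clusters were placed in the lists in the same way, and the values are set side by side without a test. The Ces1 carboxylesterase genes of chromosome 8 resembled the Serpina cluster in that all 28 pairs shared a TAD in each culture, but this TAD, 1360 kb long in 2D but 1160 kb long in 3D, had no counterpart within 40 kb. The 16 Serpinb genes of chromosome 13, which encode mostly intracellular serpins, had 105 of 120 pairs in 1 TAD in both cultures. There the start of Serpinb6a lay outside any TAD and the other 15 genes shared one. The 12 Serpinb genes of chromosome 1 had 55 of 66 pairs in the same TAD in 2D and 45 of 66 in 3D, where the start of Serpinb5 lay outside any TAD. In the albumin family of chromosome 5, Alb, Afp and Afm shared a TAD of 240 kb in both cultures and Gc lay in another, which gave 3 of 6 pairs in each. Of these 5 clusters, the Serpina genes and the Ces1 genes had no border between their first and last gene in either culture. The clusters differed in span, from 359.6 kb (Ces1) over 747.8 kb (Serpinb, chromosome 1) and 797.66 kb (Serpina) to 1136.0 kb (albumin family) and 1160.7 kb (Serpinb, chromosome 13). Borders inside and shares of pairs are therefore not directly comparable between them.

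**Figure D5:**
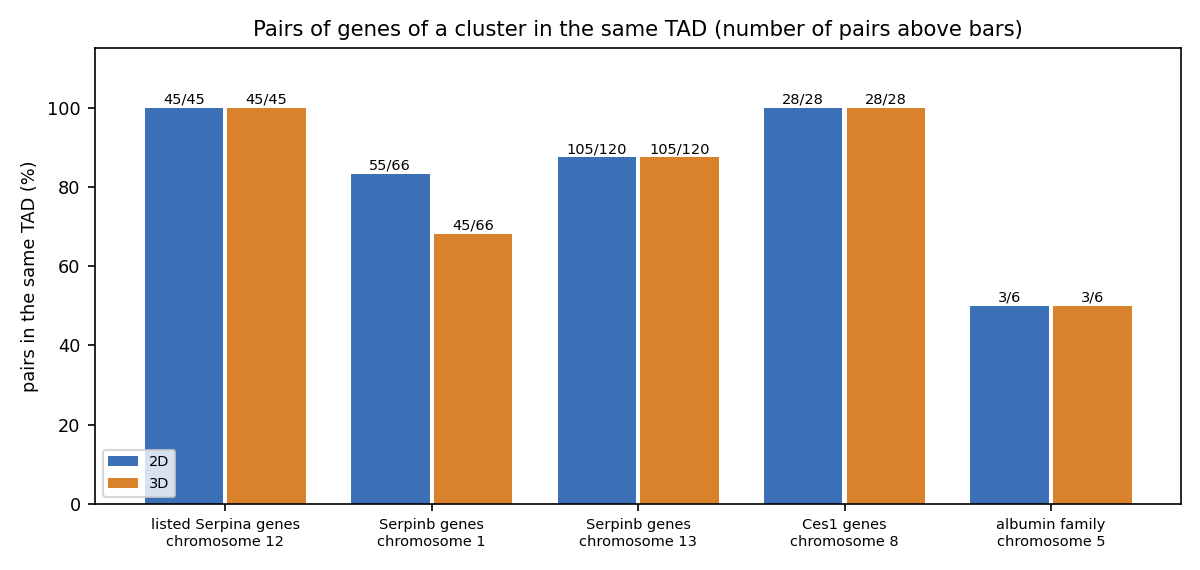
Percent of the pairs of genes of 5 clusters that lie in the same TAD, in 2D (blue) and 3D (orange), with the number of pairs above each bar. All 45 Serpina pairs and all 28 Ces1 pairs share a TAD in both cultures. The Serpinb genes of chromosome 1 go from 55 to 45 of 66 pairs through Serpinb5 alone, whose start lies outside any TAD in 3D.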

How the data were processed

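Hi-C was performed on 2 libraries per culture. According to their methods, the authors mapped reads to mm10 with Bowtie2 (2.2.9, also in the submitters' processing notes), combined replicates, binned contacts at 40 kb, applied ICE, brought the cultures to equal depth chromosome by chromosome and called TADs with Armatus (1.0, gamma 0.8). The deposited files give positions, the starts and ends of TADs in base pairs, and no other unit. Depth per TAD is unknown.

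Computed here, in Python (3.11.15) with numpy (2.4.6) and pandas (2.3.3): a gene was placed by its start in RefSeq (GRCm38.p6), a border was each distinct TAD start or end, and borders or TADs were shared within 40 kb. RefSeq was preferred because GENCODE M21 extends Serpina1b and Serpina3m over neighbouring genes. Lists and members were chosen with earlier results of these data known; the named genes are the 10 members, the other Serpina genes and 5 protein-coding genes on each side. The contact matrices, compartments and RNA-seq were not analysed here. The measures returned 8 of 8 known values on 3000 simulated TADs.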

Additional observations from a re-analysis of the deposited data

How the results depend on the processing

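Of 72 values recomputed under another choice of gene position, gene list, border, window or TAD set, 10 gave another value or call than the main setting. A median distance counted as the same within 40 kb (1 bin), a number of genes or pairs when its share was equal, and another number within 1.5 times. The placement of all 10 genes and all 45 pairs in 1 TAD held for gene midpoints, whole gene bodies, all 23 Serpina genes, TADs of at least 200 kb and stretches outside TADs split into segments of 80 kb. These choices could not have given another result. They leave a TAD of this length unchanged, and every gene position they use lies well inside it. Borders required at the same position left 0 TADs of the cluster shared in 2D and 0 in 3D, since the right border differs by 40 kb; within 80 kb, or by a reciprocal overlap of 80%, the TAD was shared. A window widened by 200 kb on each side held 1 border in 2D and 1 in 3D, both shared (1 and 1), which is the left border of the TAD. The median distance to a border rose to 553.4 kb (2D) and 532.8 kb (3D) over all 23 Serpina genes, and to 764.3 and 619.9 kb when a border had to be a junction of 2 TADs. Gene positions from GENCODE M21, an alternative chosen after seeing the data, left all 14 values the same by these criteria, although the start of Serpina1b then lies 92.2 kb and that of Serpina3m 48.7 kb away. No paired analysis was possible because the replicates were combined before TADs were called, and for the same reason no replicate could be left out. Without replicate lists, the shift of 1 bin at the right border and the small 3D TAD beside it cannot be set against the spread between replicates.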

Other observations

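Among the Serpina3 genes that were not on the list, uniqueness of the sequence split along the chromosome. Serpina3a, Serpina3b and Serpina3c, at 632.7 to 673.9 kb from the left border, had 96.2%, 92.8% and 89.8% unique words of 30 bases in their bodies. Serpina3f, Serpina3g, Serpina3i and Serpina3j, further to the right, had 68.9%, 66.6%, 75.7% and 70.2%. At 150 bases all 7 had at least 97.2%. Outside the TAD, the bin from 103440001 to 103480000, next to the left border, had 55.4% unique words of 30 bases and 51.3% of its bases in repeats, and Ifi27l2b, which lies in it, had 59.97%. This bin was outside any TAD in both cultures; the part of its sequence in that was not tested.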
